A study of Mus musculus with 8 samples.

Results

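The fibroblast growth factor (FGF) receptors and ligands described here are 10 listed genes among the 49671 in the count table. They are the kinase receptor genes Fgfr1, Fgfr2 and Fgfr3, the kinase-less receptor gene Fgfrl1, the ligand genes Fgf1, Fgf2, Fgf7, Fgf10 and Fgf18, and the adaptor gene Frs2. They were taken by name, with earlier results of these data known, and all 10 were found in all 8 columns. RNA came from 8 mouse tumors of 1 genotype, given as HprtCre, Ewsr1-loxP and Atf1-loxP. In that design Cre made from the Hprt locus recombines loxP sites in Ewsr1 and Atf1, so that the genes become joined. The labels give no strain, age, sex or control tissue, and state that no drug was used. Tumor titles are 1, 2L, 2R, 3, 4a, 4b, 5 and 6. Whether libraries came from separate animals is not stated, so p-values here measure only the spread between libraries, which may be technical.

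FGF ligands bind receptor tyrosine kinases at the cell surface together with heparan sulfate, and the active receptor phosphorylates the docking protein encoded by Frs2, which links it to the RAS and ERK pathway. ERK signaling in turn induces the ETS factor genes Etv4 and Etv5 and the inhibitor genes of the Sprouty and Dusp families, which dampen the same pathway. Fgf7 and Fgf10 are typically made by mesenchymal cells and act mainly through a splice form of Fgfr2 found in epithelium. Fgf1 and Fgf2 lack a classical signal peptide, and Fgf18 is known for its role with Fgfr3 in cartilage and bone. The human fusion of EWSR1 with ATF1 is characteristic of clear cell sarcoma, and the fusion protein keeps the domain of ATF1 that recognises the cyclic AMP response element (CRE).

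Library totals ran from 4817902 counts in tumor 3 to 19682149 in 2L. Mitochondrial genes and a few abundant noncoding RNAs left 25.1% of the counts of library 3 for all other genes, against 59.8% to 95.3% in the other 7. Library 3 therefore gave only 1 to 233 counts to each of the 10 genes, and its values are given with that limit. Levels are CPM, counts scaled to the summed counts of the genes kept by the low-count filter times the TMM factor of each library. Of the melanocytic markers, Mitf stood at 30.3 CPM or more in every tumor, while Tyr, Tyrp1 and Mlana had no count in any. Dct ran from 0 CPM in 6 to 27.4 in 2L and 74.0 in 3, and Pmel did not exceed 1.91 CPM. Skeletal muscle markers summed to 20807 CPM in 2L and 6685 CPM in 3, and to at most 119 CPM elsewhere.

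The 250 bases upstream of the RefSeq start (GRCm38.p6) were available for 8 of the 10 genes, Fgf1 and Fgfr1 being the ones without an entry. The windows of Fgf10, Fgf18 and Fgf7 are shown because these ligands were the most abundant per length, and because Fgf10 and Fgf18 had similar orders over the tumors (rho = 0.88, r = 0.71 of log2 CPM over 8 libraries that share composition, as a description). That rho was the highest among pairs of the 10 genes. Fgfr1 was nearly as similar to Fgf10 (rho = 0.83, r = 0.65) and to Fgf18 (rho = 0.69, r = 0.78). Capitals mark CG dinucleotides. The windows are chr13:118714449-118714698 on the plus strand for Fgf10, chr11:33147401-33147650 on the minus strand for Fgf18, and chr2:126034408-126034657 on the plus strand for Fgf7.
Fgf10: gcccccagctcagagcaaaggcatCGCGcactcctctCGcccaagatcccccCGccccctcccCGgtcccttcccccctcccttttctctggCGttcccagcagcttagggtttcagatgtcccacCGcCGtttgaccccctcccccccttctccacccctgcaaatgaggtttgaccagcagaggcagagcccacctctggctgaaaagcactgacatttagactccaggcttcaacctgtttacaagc
Fgf18: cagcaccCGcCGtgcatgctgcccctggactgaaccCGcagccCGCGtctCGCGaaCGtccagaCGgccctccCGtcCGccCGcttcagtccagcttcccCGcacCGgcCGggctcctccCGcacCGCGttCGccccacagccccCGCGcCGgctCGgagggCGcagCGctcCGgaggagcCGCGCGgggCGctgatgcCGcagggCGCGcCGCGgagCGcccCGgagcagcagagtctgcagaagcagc
Fgf7: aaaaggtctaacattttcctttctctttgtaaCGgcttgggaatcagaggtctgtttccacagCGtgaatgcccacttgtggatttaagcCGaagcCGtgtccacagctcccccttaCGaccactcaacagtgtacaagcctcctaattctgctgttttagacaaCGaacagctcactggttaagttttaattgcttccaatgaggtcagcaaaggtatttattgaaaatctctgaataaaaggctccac

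The Fgf18 window held 37 CG dinucleotides, more than 97.8% of 32851 mouse promoters of that length, whereas Fgf10 held 8 and Fgf7 held 6, against a median of 6. The full CRE, TGACGTCA, was found in no window of the 8 genes (Fgfr3 has 2 starts) and in 1.55% of all promoters. Its half-site TGACG, searched on both strands, was found only in Fgf2, at 140 and 6 bases upstream of the start, and in 17.8% of all promoters. All 250 bases of the Fgf2 window, and of both Fgfr3 windows, lie in annotated exons. The AP-1 letters TGANTCA (6.75% of all promoters) and the TATA letters TATAAA (12.4%) were in none of the windows of the 8 genes. These letters describe one short window per start and say nothing about binding elsewhere.

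Fgf10, a ligand that drives budding of lung and limb, was the most abundant of the 5 ligands per length and varied widely between tumors. It lies on mm10 chromosome 13, from 118669791 to 118792115 on the plus strand. Its level was 212 CPM in 2R, 131 in 4b, 94.0 in 4a and 84.3 in 6, then 60.4 in 1, 39.6 in 5, 27.7 in 3 and 11.8 in 2L. Tumor 2R was thus 17.9 times above 2L (log2 ratio of 2L over 2R -4.16, or -3.499 with library totals), although both carry the number 2, whereas 4a and 4b lay close together. The mean was 82.6 ± 65.0 CPM (SD, n = 8), and the SD of its log2 CPM, 1.32, exceeded that of 95.2% of the 11505 kept genes. In a bulk tumor a lower level can mean fewer cells that make the RNA or less RNA in each, which cannot be told apart.

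Fgf7, the keratinocyte growth factor and closest relative of Fgf10 in this list, had a different order over the tumors. It spans chromosome 2 from 126034658 to 126091185 on the plus strand. Its level was 36.1 CPM in 4b, 31.8 in 4a and 27.9 in 5, then 9.94 in 1, 4.78 in 2L, 4.204 in 2R, 1.59 in 6 and 1.07 in 3. The 33.9-fold range was the widest of the 10 genes. Tumors 4a, 4b and 5 stood well above the other 5, which did not exceed 9.94 CPM. The value in tumor 3 rests on 2 counts, with a 95% Poisson interval of 0.129 to 3.85 CPM that covers counting error only. The 7 fibroblast markers, each at a mean of at least 10 CPM, summed to 9070 CPM in 4a and 10028 in 4b. Their sum was 4799 CPM in 5 and 681 (in 3) to 4417 (in 2R) in the other 5, and their part in the Fgf7 level was not tested. Col1a1 and Pi16 made up most of each of these sums, and other markers on the list had another order: Dcn was 184 CPM in 2L and 60.5 in 4b, and Dpt was 445 CPM in 2R and 91.9 in 4b.

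Fgf10 exceeded Fgf7 per kilobase of exon in all 8 tumors, but by very different factors. The ratio was 37.6 in tumor 6, 35.6 in 2R, 18.4 in 3 and 4.29 in 1. It was only 2.56 in 4b, 2.09 in 4a, 1.75 in 2L and 1.002 in 5. With longest transcripts as length, Fgf7 was above Fgf10 in 5, at 36.9% against 34.0% of the 5 listed ligands. The ratio in 3 rests on 2 counts of Fgf7. A ratio within a library does not depend on how libraries are scaled. The mean log2 ratio was 2.49 ± 2.07 (SD, n = 8), so the mean exceeded 1 SD.

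Fgf1, which binds every FGF receptor, separated the tumors into high and low values. Its locus is on chromosome 18, from 38838673 to 38929472 on the minus strand. Its level was 17.7 CPM in tumor 1, 13.3 in 2L and 14.0 in 5. It was 3.58 CPM in 2R, 2.03 in 6, 1.86 in 4a, 1.07 in 3 and 0.831 in 4b. No tumor lay between 3.58 and 13.3 CPM. The lowest values rest on 2 counts in 3 and 11 in 4b, with upper 95% Poisson limits of 3.85 and 1.49 CPM.

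Fgf2, basic FGF, varied over a 5.10-fold range, less than Fgf1. The gene spans chromosome 3 from 37348346 to 37410108 on the plus strand. Its level was 16.3 CPM in 2L, 14.4 in 4b, 14.3 in 5, 10.6 in 1 and 9.65 in 4a, then 4.35 in 6, 3.58 in 2R and 3.20 in 3. The value in 3 rests on 6 counts. The opposite-strand gene Nudt6 shares 640 bases of exon with it, 9.44% of the exon length of Fgf2. Nudt6 stood at 1.56 ± 0.587 CPM (SD, n = 8). Strand handling of the counts is not given in the sources used here, so reads in the shared bases cannot be assigned to either gene.

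Fgf18 was the scarcest listed ligand in mean CPM but second to Fgf10 in geometric mean per length, its gene model having 1187 bases of exon. Its coordinates are chromosome 11, from 33117430 to 33147400 on the minus strand. Its level was 7.94 CPM in 2R and 7.36 in 6, followed by 6.09 in 4a, 4.31 in 4b and 3.73 in 1, with 2.53 in 5 and 2.39 in 2L. Tumor 3 stood apart at 0.533 CPM, which is a single count with a 95% Poisson interval of 0.0135 to 2.97 CPM. The mean was 4.36 ± 2.59 CPM (SD, n = 8) and 4.91 CPM without tumor 3.

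**Figure D1:**
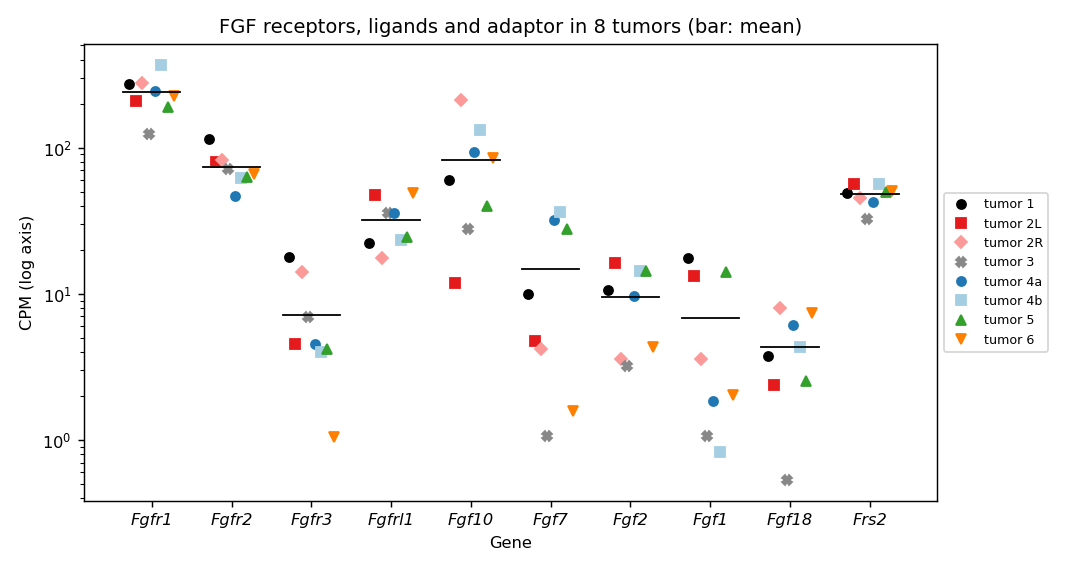
Level of each of the 10 genes in each of the 8 tumors, in CPM on a log axis; each symbol is 1 library and the bar is the mean. Fgfr1 lies between 124 and 369 CPM and Frs2 between 32.5 and 56.7 CPM, whereas Fgf10, Fgf7 and Fgf1 spread widely.

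Among receptors, Fgfr1 was the main transcript. Fgfr1 (ENSMUSG00000031565) lies on chromosome 8, from 25513654 to 25575718 on the plus strand. Its level was 369 CPM in 4b, 275 in 2R, 273 in 1, 243 in 4a, 225 in 6, 207 in 2L, 190.3 in 5 and 124 in 3. Tumor 4b was high and tumor 3 low, with the other 6 between 190.3 and 275 CPM. Its level per length exceeded that of 89.97% of kept genes, while the SD of its log2 CPM, 0.461, was below the median of 0.513 over all kept genes.

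Fgfr2, the main receptor for Fgf7 and Fgf10 in its epithelial splice form, was present in every tumor. Its level was 114 CPM in tumor 1 and 47.04 in 4a, and the other 6 lay between 62.0 and 82.7 CPM. The counts are per gene and do not separate the epithelial from the mesenchymal splice form. The annotated model spans chromosome 7 from 130162451 to 133123350 and shares 314 bases of exon with Ctbp2, which stood at 19.8 ± 2.03 CPM (SD, n = 8). Shared bases make up 3.04% of the Fgfr2 exon length.

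Fgfr3 was the scarcest of the listed receptors and the one with the largest relative spread. Its position is chromosome 5, from 33721674 to 33737068 on the plus strand. Its level was 17.8 CPM in tumor 1, 14.0 in 2R and 6.92 in 3. It was 4.005 to 4.56 CPM in 2L, 4a, 4b and 5, and 1.06 CPM in 6. Tumors 1 and 2R stood above all others, and the value in 3 rests on 13 counts (95% Poisson interval 3.69 to 11.8 CPM). The SD of its log2 CPM, 1.20, exceeded that of 93.1% of kept genes, while its level per length exceeded that of only 4.11%.

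Fgfrl1 binds FGF ligands but carries no kinase domain. The gene is also on chromosome 5, from 108692382 to 108706924 on the plus strand. Its level was 48.7 CPM in tumor 6, 47.1 in 2L, 35.7 in 3 and 35.4 in 4a. It was 24.5 CPM in 5, 23.4 in 4b, 22.2 in 1 and 17.6 in 2R. The tumors lowest in Fgfrl1, 2R and 1, were the highest in Fgfr3, and the tumor highest in Fgfrl1, 6, was the lowest in Fgfr3. Their log2 CPM correlated at r = -0.71 and rho = -0.57 over the 8 libraries, which is given as a description, since the points share the composition of their libraries. The pair had the lowest r among the 10 genes, but by rho it was not alone. Fgfrl1 had rho = -0.64 with Fgfr1 (r = -0.46) and -0.57 with Fgf10 (r = -0.59), and Fgfr3 had -0.67 with Frs2 (r = -0.25).

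As shares of the receptor transcripts per kilobase (Fgfr1, Fgfr2, Fgfr3, Fgfr4 and Fgfrl1 summed), Fgfr1 took 54.2% ± 10.5 (SD, n = 8). Fgfrl1 took 26.7% ± 10.3, Fgfr2 16.3% ± 4.08 and Fgfr3 2.27% ± 1.64. Fgfr1 was the largest share in 7 tumors, with 71.4% in 4b, and in tumor 3 Fgfrl1 took 38.4% against 37.6% for Fgfr1. With the longest transcript as gene length, Fgfr1 was the largest in all 8. The next 2 then changed places, with mean shares of 21.1% for Fgfr2 and 17.9% for Fgfrl1. Fgfr4, whose product serves bile acid control in liver, had 5.50 CPM in tumor 1, whereas the other 7 had at most 0.533 CPM.

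Fgfr1 exceeded Fgfr2 per kilobase in 8 of 8 tumors, by 1.82-fold in 3 and 6.23-fold in 4b. The mean log2 ratio of 1.75 ± 0.578 (SD, n = 8) was larger than its spread. Fgfr2 exceeded Fgfr3 in 8 of 8 as well, with a mean log2 ratio of 3.21 ± 1.07. For the ligands, Fgf10 took 58.2% ± 20.8 of the 5 listed ligands per kilobase, from 23.6% in 2L to 83.4% in 2R. It was the largest share in 8 of 8 tumors with exon union lengths and in 6 with longest transcripts, where Fgf1 led in 2L and Fgf7 in 5.

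**Figure D2:**
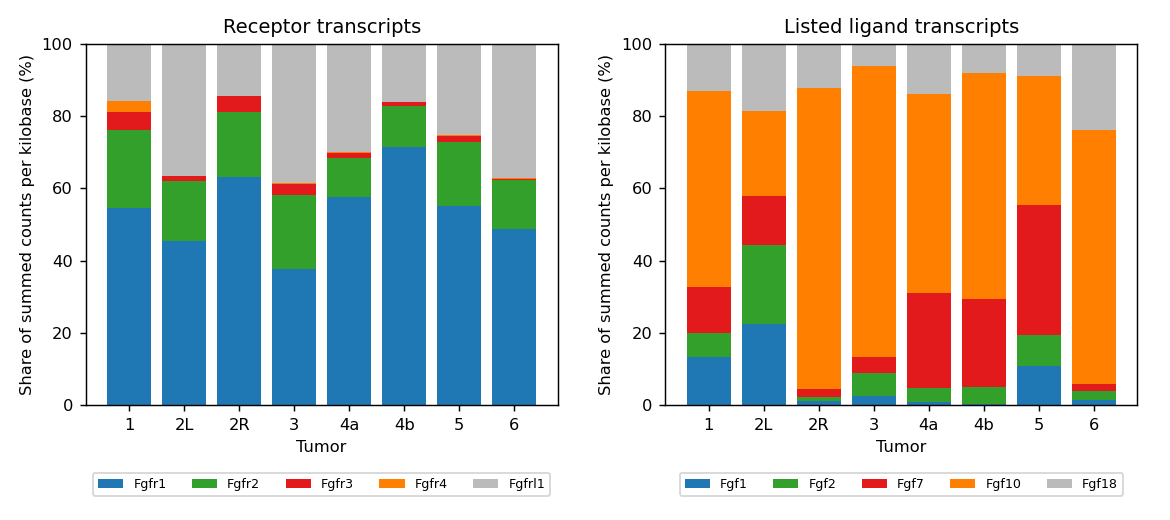
Share of each gene in the summed counts per kilobase of exon, in percent, for the receptors (left) and the 5 listed ligands (right); each bar is 1 tumor. Fgfr1 fills 37.6% to 71.4% of the receptor bars, and Fgf10 fills 23.6% to 83.4% of the ligand bars.

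Frs2 was the steadiest of the 10 genes. It is on chromosome 10, from 117069427 to 117148534 on the minus strand. The lowest level, 32.5 CPM, was in tumor 3, and the other 7 tumors had 42.8 to 56.7 CPM, with a mean of 47.8 ± 7.84 CPM (SD, n = 8). The SD of its log2 CPM, 0.257, was above that of only 11.02% of kept genes.

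Ordered by mean log2 level per kilobase, the genes ran Fgfr1, Fgf10, Fgfrl1, Fgfr2, Frs2, Fgf18, Fgf7, Fgf2, Fgfr3 and Fgf1. The geometric means were 23.1 CPM per kilobase for Fgfr1, 13.1 for Fgf10, 10.8 for Fgfrl1 and 6.89 for Fgfr2. They were 5.397 for Frs2, 2.87 for Fgf18, 2.33 for Fgf7, 1.18 for Fgf2, 0.742 for Fgfr3 and 0.688 for Fgf1. No neighbouring pair differed beyond 1 SD of its difference (0 of 9). Fgfr1 was above Fgf10 in 7 of 8 tumors, with 2R as the exception.

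The test among the 6 title numbers asked whether tumors of different numbers differ more than 2L from 2R and 4a from 4b. With edgeR's quasi-likelihood F-test, 7 of the 10 genes passed the filter on low counts and 0 of the 7 were called at an adjusted p under 0.05, as were 0% of the 11505 genes tested. Fgfr3 came closest, with an unadjusted p of 0.0459 and an adjusted p of 0.198. It was the only one of the 7 with an unadjusted p under 0.05, against 24.5% of all genes tested. The adjusted p was 0.324 for Fgfr2, 0.423 for Fgfr1, 0.589 for Fgf2, 0.734 for Frs2, 0.766 for Fgfrl1 and 0.815 for Fgf10, again from edgeR.

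Other settings changed the call for some of these genes. The DESeq2 likelihood ratio test called Fgfr3 with an adjusted p of 0.00885, and no other of the 7, where it called 20.7% of all genes. Without 2L, edgeR called 38.7% of genes, among them Fgfr3, Fgf10 and Fgf2 with adjusted p of 0.000321, 0.00043 and 0.0123. Without 2R it called 39.3%, and the same 3 genes had adjusted p of 0.00208, 0.00131 and 0.0298. Those fits have 4a and 4b as their single same-number pair. With library totals in place of TMM, edgeR called 37.3% of genes and 4 of the 7 (Fgfr1, Fgfr3, Fgf2 and Fgf10). Fgf1, Fgf7 and Fgf18 failed the filter, and edgeR gave them adjusted p of 0.216, 0.104 and 0.441 when all genes at a mean of at least 1 CPM were tested. With no filter edgeR called Fgf1, Fgf7 and Fgfr3, beside 20.6% of all genes.

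Within the pair 2L and 2R, 6 of the 10 genes differed at least 2-fold, and within 4a and 4b only 1 did. Among kept genes at a mean of at least 5 CPM in the pair, 16.9% of 10542 and 4.06% of 10360 were at least 2-fold apart. Of the 6 genes, Fgf1 and Fgf18 are outside that background because they failed the filter, and so is Fgf1 in 4a and 4b. Each side is 1 library, so the intervals that follow cover counting error only and there is no test. Fgf10 was lower in 2L than in 2R by a log2 ratio of -4.16 (95% interval -4.35 to -3.98), the widest gap of the 10. Fgf18 and Fgfr3 were also lower in 2L, at -1.73 and -1.62. Fgf2, Fgf1 and Fgfrl1 were higher in 2L, at 2.19, 1.90 and 1.42. Fgfr2 differed little, at -0.06 (-0.20 to 0.08), or 0.61 with library totals. With library totals and no TMM factor every ratio of this pair rises by the same amount, which moves the median over genes to 0.65 and gives Fgfr3 -0.96, under 2-fold.

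In 4a against 4b, only Fgf1 differed at least 2-fold, at 1.16 (95% interval 0.19 to 2.26), from 45 and 11 counts. Fgf10 and Fgf7, the pair of ligands for Fgfr2, were at -0.48 and -0.18. Fgfr1 was at -0.61 and Fgfrl1 at 0.60.

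**Figure D3:**
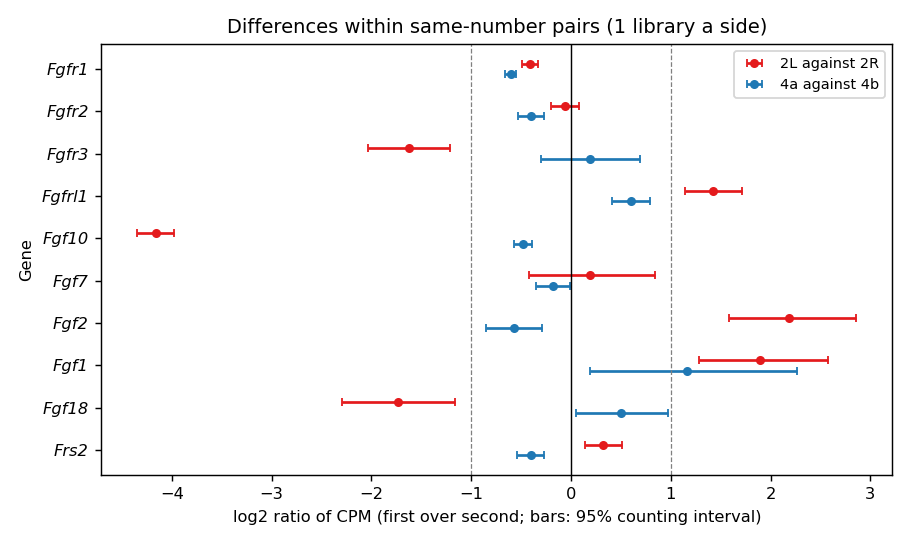
log2 ratio of CPM within the pairs 2L against 2R and 4a against 4b for the 10 genes, with 95% counting intervals; dashed lines mark 2-fold. Fgf10 lies at -4.16 for 2L against 2R and at -0.48 for 4a against 4b.

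The other ligand genes were mostly near 0. Of the 15 canonical ligand genes 7 reached a mean of 1 CPM: the 5 listed ones, Fgf9 at 1.72 ± 0.869 CPM (SD, n = 8) and Fgf3. Fgf3, a ligand best known from the inner ear and mouse mammary tumors, stood at 29.8 CPM in 2L, 5.33 in 3 and 3.90 in 5, and at no more than 0.244 CPM in the other 5. Fgf15, the intestinal hormone that signals to liver, stood at 24.5 CPM in 3, 17.3 in 5 and 15.95 in 2L, and at no more than 0.977 CPM elsewhere. Fgf3 and Fgf15 were thus both high in the same 3 tumors, which overlap with the Fgf1-high tumors 1, 2L and 5 only in 2L and 5.

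Both genes lie close together on mm10 chromosome 7, Fgf3 from 144838083 to 144844436 and Fgf15 from 144896531 to 144900953. Fgf4, from 144847367 to 144865243 between them, had at most 0.0392 CPM in a library. Ccnd1, which encodes a cell cycle cyclin and lies on the minus strand from 144929931 to 144939925, had 52.8 CPM in 2L, 35.7 in 3, 92.4 in 5 and 119.5 in 4a. The summed level of 9 keratinocyte markers was also highest in these tumors: it came to 877 CPM in 2L, 728 in 5 and 306 in 3, and to 2.56 to 79.4 CPM in the other 5. In 2L and 5 the sum came mainly from Dsg3 and Dsp, in 3 mainly from Krt5 at 193 CPM, while Krt1 and Lor did not exceed 0.533 CPM anywhere. Single markers did not all follow the sum: Krt5 was 0.392 CPM in 2L and 0.105 in 5, and Krt10 was lowest in 2L at 0.314. Krt14 was high in 2L and 5, at 45.6 and 55.1 CPM, but was 2.66 in 3 against 6.04 in 1. Col17a1 did follow it, at 23.4 CPM in 2L, 38.2 in 5 and 2.66 in 3 against at most 1.95 elsewhere. Library 3 held 10 counts of Fgf3 against 760 in 2L, which is 1.32%, close to the median of 1.35% over 8 skeletal muscle markers (range 0.919% to 3.11%). For Fgf15 it held 46 counts against 407, or 11.3%. The part of keratinocyte or muscle tissue, or of reads shared between libraries, in these levels was not tested.

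**Figure D4:**
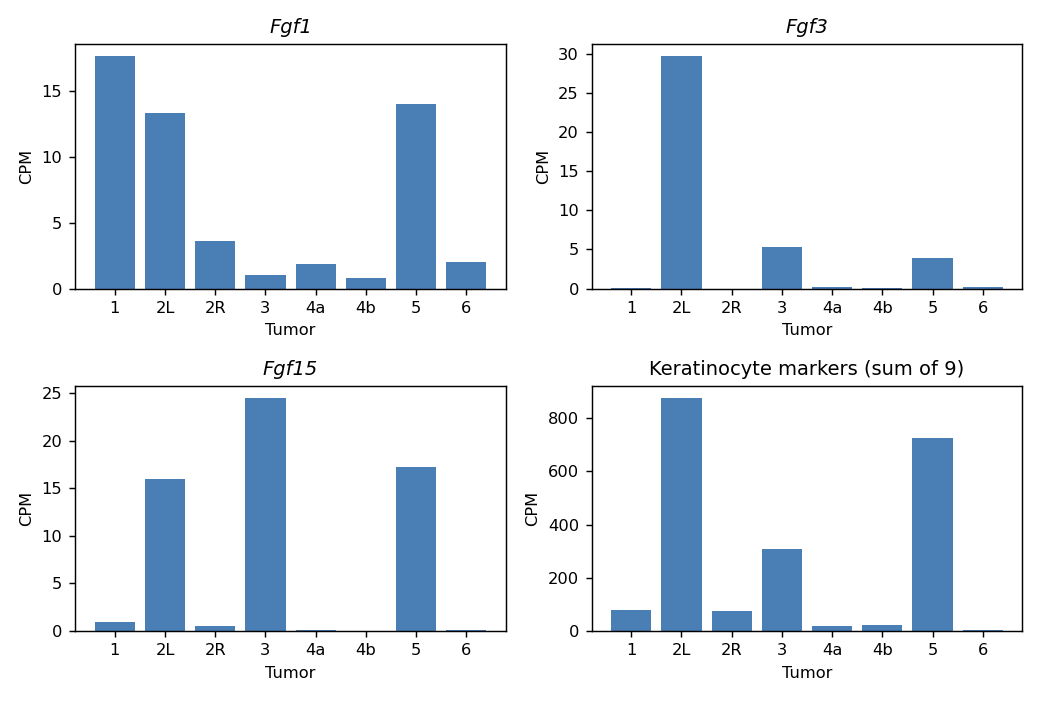
Levels of Fgf1, Fgf3 and Fgf15 and the summed level of 9 keratinocyte markers in each tumor, in CPM; each bar is 1 library. Fgf3 and Fgf15 are high in 2L, 3 and 5, where the marker sum is 306 CPM or more.

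The hormone-like and intracellular family members were otherwise scarce. Of Fgf15, Fgf21, Fgf23 and the coreceptor genes Kl and Klb, only Fgf15 reached a mean of 1 CPM, and Kl and Klb did not exceed 1.07 CPM in any tumor. Of the intracellular FGF homologous factors, which bind sodium channels and are not secreted, Fgf11 led with a mean of 8.28 ± 4.83 CPM (SD, n = 8) and 19.3 CPM in tumor 6. Fgf13 ran from 1.60 to 3.46 CPM in tumors 1, 2L, 2R and 3 and did not exceed 0.316 CPM in the other 4. The value in 3, 1.60 CPM, rests on 3 counts, which is as high as a count of 0 allows there. Fgf12 averaged 1.34 CPM.

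Of the adaptor and relay genes downstream of the receptors, all 9 passed the filter and 8 reached a mean of 10 CPM, and the median SD of their log2 CPM was 0.250 against 0.513 for all kept genes. Ptpn11, which encodes the phosphatase SHP2, stood at 129 ± 24.7 CPM (SD, n = 8), Plcg1 at 98.5 ± 33.5 and Grb2 at 36.2 ± 5.16. Frs3, the close relative of Frs2, was scarce at 2.47 ± 1.39 CPM, and the SD of its log2 CPM, 0.674, was above the median of all kept genes.

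The median SD of log2 CPM was 0.626 over the 9 feedback inhibitors tested and 0.827 over the 6 target genes tested, a description with no test of a difference from other genes. Dusp6, the phosphatase that inactivates ERK, was the most abundant inhibitor at 333 ± 115 CPM (SD, n = 8), with 149 CPM in tumor 1, 164 in 3 and 339 to 443 in the other 6. Spred1, Spred2 and Cbl varied little, with SDs of log2 CPM of 0.245, 0.176 and 0.187, the last 2 being named after their values were seen. Spry2 ran from 4.92 CPM in 6 to 54.3 in 3. Of the 9 inhibitor genes tested 4 had an unadjusted p under 0.05 in the edgeR test among title numbers, as did 4 of 6 target genes. Over all 9 pathway lists it was 17 of 52 genes tested, with 0 of 9 adaptor genes, against 24.5% of all genes. After adjustment 0 of these genes were called.

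Among targets, Etv5 stood at 116 CPM in 4b, 76.0 in 1, 75.1 in 2L, 69.4 in 4a, 50.1 in 2R, 43.8 in 5, 31.9 in 6 and 18.1 in 3. It was highest in 4b and lowest in 3. Egr1 was highest in 4b at 107 CPM and 5 at 82.8, and lowest in 6 at 3.82. Tumor 6 was also lowest in Ccnd1, at 23.6 CPM, and in Dusp4, at 0.163 CPM. The Dusp4 value rests on 4 counts, and that gene failed the low-count filter. The DESeq2 likelihood ratio test called 4 of 6 target genes (Etv4, Etv5, Ccnd1 and Egr1) and 3 of 9 inhibitor genes (Spry2, Il17rd and Dusp6). Over all 9 pathway lists it called 17 of 52 genes, with 0 of 9 adaptor genes, where it called 20.7% of all genes.

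**Figure D5:**
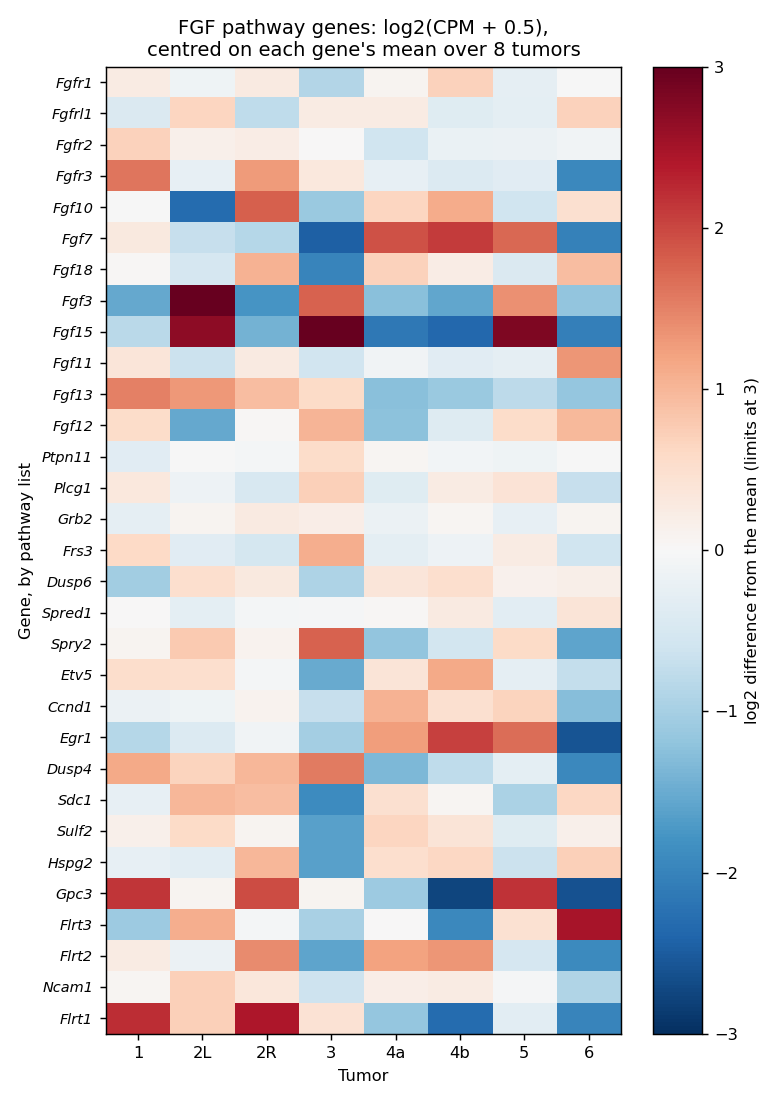
Heat map of the pathway genes named by level or spread, as log2(CPM + 0.5) minus each gene's mean over the 8 tumors, with colour limits at 3; rows are genes by list and columns are tumors. Adaptor rows such as Ptpn11 and Grb2 stay pale, while Fgf3, Fgf15, Gpc3 and Flrt1 differ strongly between tumors.

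Heparan sulfate proteoglycans hold FGFs at the cell surface and in the matrix, and their list here also holds the enzymes that build or trim the sugar chains. A mean of at least 1 CPM was found for 19 of 20 genes, and of at least 10 CPM for 17. The basement membrane gene Hspg2 stood at 1009 ± 509.8 CPM (SD, n = 8), the sulfatase gene Sulf2 at 420 ± 154 and the syndecan gene Sdc1 at 306 ± 161. All 3 were lowest in tumor 3, at 282, 123 and 69.2 CPM. Gpc3 was the most uneven, at 57.5 CPM in 5, 57.4 in 1 and 49.8 in 2R against 1.44 in 4b.

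Of the receptor partners, Flrt3 stood at 215 CPM in tumor 6 and at 9.67 to 82.0 CPM in the others. Flrt2 was at least 99.1 CPM in 2R, 4a and 4b and at most 50.6 CPM elsewhere. Flrt1 stood at 24.8 CPM in 2R and 21.2 in 1, the tumors that were also highest in Fgfr3, and at 0.453 to 7.25 CPM in the other 6. The adhesion gene Ncam1 averaged 38.2 ± 12.9 CPM (SD, n = 8).

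Genes with the most similar profile over the 8 libraries were sought among kept genes by Pearson's r of log2 CPM, as a description without a test. For Fgfr3 these were the vessel factor gene Angpt2 (r = 0.985), Drp2 (0.966) and Wnt5a (0.962). For Fgf10 they were Pcdhgb6 (0.938), Rbms1 (0.929) and Apold1 (0.926), and for Fgf2 they included Clcn3 and Usp3 (0.960 and 0.954). For Fgfr1 they included Zfp984 and Prrc1 (0.972 and 0.963), and for Fgfr2 Trim32, Matn4 and Slit1 (0.956, 0.943 and 0.925). For Fgfrl1 they were Tstd2, D1Ertd622e and Wnt10a (0.924, 0.918 and 0.908), and for Frs2 Zbtb20, Trappc11 and Usp32 (0.972, 0.958 and 0.954). These names depended on the libraries and scaling: without library 3 none of the 3 for Fgfr2, Fgfrl1 or Fgf10 was named again. With library totals r fell to 0.581 for Slit1 with Fgfr2 and to 0.721 for Wnt10a with Fgfrl1. The 8 points share library composition.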

How the data were processed

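Per the labels' protocols, ribosomal RNA was removed from the total RNA of 8 tumors before sequencing. The authors deposited 1 table of raw counts, whole numbers per Ensembl gene. Tools named per the submitters' processing notes are STAR 2.7.5a, RSEM, featureCounts and cutadapt, on build mm10. Which one made the counts, their order and strand handling are not given in the sources used here. Names, coordinates and exon lengths came from GENCODE M21 (mm10), which named 99.3% of identifiers. Promoter sequences are RefSeq's, on GRCm38.p6.

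Software was edgeR 4.0.16 and DESeq2 1.42.0 in R 4.3.3, and Python 3.11.15. The low-count filter (filterByExpr for 1 group, at least 0.920 CPM of the library total in every library) kept 11505 genes, and 7 of the 10. TMM factors ran from 0.394 in library 3 to 1.36 in 2L. A prior count of 2 was used for log2 CPM. Title numbers were compared with edgeR's quasi-likelihood F-test (robust, 2 residual degrees of freedom), adjusted after Benjamini and Hochberg over all kept genes at 0.05. Simulated data were used to check the edgeR fit. A count of 0 allows up to 3 counts, or 1.60 CPM in library 3 (0.467 CPM or less elsewhere).

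Named pathway genes are the 3 of highest level per kilobase and the 1 of largest spread in each of 9 lists; similar genes are the top 3 for each gene that passed the filter, of which some are not reported here. Nudt6 and Ctbp2 were named because their exons overlap those of a listed gene. On the opposite strand, Gm16263 shares 123 bases of exon with Fgf10, with a mean of 2.03 CPM. G630022F23Rik shares 998 bases with Fgfr3, 13.9% of its exon length, and held 6 counts in total. Gm16159 shares 164 bases with Fgfr1 and held 1 count. The 10 genes and all lists were chosen with earlier results of these data known. Alternatives were other scalings, filters and lengths, DESeq2, and leaving out each library. Reads are not independent molecules, so Poisson and binomial intervals cover counting error only.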

Additional observations from a re-analysis of the deposited data

Results flagged for a closer look

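3 of 34 named genes had a library far from the other 7 by Dixon's criterion (above 0.526 for 8 samples), on log2 CPM; chance alone marks about 1 in 20. All were library 3, the shallowest. Fgf18 stood at 0.533 CPM there, from 1 count, against 2.39 CPM or more in the others. Sulf2 stood at 123 CPM against 298 CPM or more. Ptpn11 was high, at 186 CPM against at most 133 CPM. The abundant RNAs and the depth of library 3 move with these values, and their part in them was not tested.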

How the results depend on the processing

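Called genes among title numbers numbered 0 in the edgeR test (2813 at an unadjusted p under 0.05), 0 with DESeq2 size factors and 0 at a mean CPM of 1. They numbered 4296 with library totals, 2383 with the DESeq2 test and 6260 without a low-count filter. Leaving out 1 library gave 0 to 4548, with calls only without 2L (4457) or 2R (4548). Mean levels moved by over 1 SD only when scaled to counts outside mitochondrial and abundant noncoding genes: Fgfr1 348, Fgfr2 108, Fgfrl1 46.1 and Frs2 69.8 CPM. All 10 means rose under that scaling, and the others stayed within 1 SD, such as Fgf10 at 119 CPM against 82.6. With library totals 3166 genes were at least 2-fold apart in 2L against 2R, against 1778. With longest transcripts as length, Fgfr2 ranked 2, Fgf10 3 and Fgfrl1 4. Without length scaling the ranks were Fgfr2 2, Fgf10 3, Frs2 4, Fgfrl1 5, Fgf2 6, Fgfr3 8, Fgf1 9 and Fgf18 10. Averaged over the 6 numbers, Fgf1 ranked 9 and Fgfr3 10. When 1 library was left out, ranks ran from 2 to 3 for Fgf10 and Fgfrl1, 6 to 7 for Fgf7 and Fgf18, and 9 to 10 for Fgf1 and Fgfr3; Fgfr1 stayed at 1. The 3 genes most like a member were sensitive: in 16 of 21 checks fewer than 2 of the 3 were named again. The cause of these changes was not tested. No paired analysis was possible because the labels name 1 group. Depth limits Fgf1, Fgf7 and Fgf18 in library 3, at 1 or 2 counts.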
